A study of Mus musculus with 6 samples.

Results

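The core circadian clock genes were examined in livers of isolated and control mice. They comprise 10 of the 18193 genes named on the array: the activators Arntl, Clock and Npas2, the Period genes Per1, Per2 and Per3, the Cryptochromes Cry1 and Cry2, and the Rev-erb genes Nr1d1 and Nr1d2. Every probe set that the platform annotation assigns to exactly 1 of these symbols was taken, which gave 23 of the 45037 probe sets on the array after control probe sets were set apart. Of these 23, 19 lay in the upper 50% by mean log2 value and were tested. They cover 9 of the 10 genes, since both probe sets of Npas2 fell below that filter.

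The isolated group was 3 liver samples of male BALB/c mice kept 1 to a cage for 30 days, out of social contact and on a reduced amount of bedding. The control group was 3 liver samples of male BALB/c mice that were not isolated. Mice of both groups are labelled as 10 weeks old, entered the study at 4 weeks, shared cages of 5 for 10 days of acclimatisation, and had 12 h of light, 12 h of dark, and food and water at will. The labels give neither a collection time nor a feeding state for the livers. A difference in collection or feeding time and a difference in the clock itself therefore cannot be told apart in these data.

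The circadian clock of mammalian cells is a transcriptional feedback loop. ARNTL (also called BMAL1) pairs with CLOCK or its paralog NPAS2 and binds E-box sequences to switch on the Per, Cry and Rev-erb genes, whose protein products then act back: PER and CRY proteins inhibit the activators, and the REV-ERB nuclear receptors repress Arntl through ROR response elements. In mouse liver, Arntl, Clock and Npas2 transcripts peak around the end of the night, Nr1d1, Nr1d2 and Per3 peak by day, Per1 and Per2 peak around dusk, and Cry1 peaks late at night.

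No clock probe set differed between isolated and control livers by limma at an adjusted p under 0.05, with 0 of 19 called, against 1.63% of all 22519 tested probe sets (0.773% higher and 0.857% lower in isolated mice). At an unadjusted p under 0.05 there were 4 of 19, against 11.4% of all tested probe sets. The 3 that were lower in isolated mice, against 4.53% of all, are the 3 tested probe sets of Nr1d1 and Nr1d2, and the 1 that was higher belongs to Per2. The median log2 change over the 19 was 0.05, and over all tested probe sets it was 0.04. Fewer cells of a type and less RNA per cell cannot be told apart in whole liver.

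Clock proteins are known to act through short sequence elements near start sites. RefSeq windows of 300 bases (250 before the start site and 50 from it on, assembly GRCm38.p6) were at hand for 9 of the 10 genes, 13 windows in all. They were searched on both strands for the E-box CACGTG, the E'-box CACGTT, the D-box TTATGNAA, where N is any base, and the ROR element, and no matches overlapped. The 4 windows printed here, with matches in capitals, are those of the Rev-erb pair, whose log2 differences were the largest among the brightest probe sets, of Arntl, the gene that REV-ERB proteins repress, and of Per3 for its D-boxes.
Nr1d1, chr11:98775328-98775627, minus strand: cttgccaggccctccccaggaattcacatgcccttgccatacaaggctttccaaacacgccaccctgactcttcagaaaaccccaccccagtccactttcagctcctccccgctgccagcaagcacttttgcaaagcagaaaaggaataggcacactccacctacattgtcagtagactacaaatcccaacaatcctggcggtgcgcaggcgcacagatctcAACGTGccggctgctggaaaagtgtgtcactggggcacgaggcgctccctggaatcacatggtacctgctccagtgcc
Nr1d2, chr14:18239057-18239356, minus strand: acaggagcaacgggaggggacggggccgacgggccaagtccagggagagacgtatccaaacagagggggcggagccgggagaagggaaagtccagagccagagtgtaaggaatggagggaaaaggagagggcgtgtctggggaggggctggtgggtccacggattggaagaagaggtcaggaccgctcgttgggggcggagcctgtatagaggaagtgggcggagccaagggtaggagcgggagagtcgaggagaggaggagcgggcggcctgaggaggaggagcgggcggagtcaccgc
Arntl, chr7:113207261-113207560, plus strand: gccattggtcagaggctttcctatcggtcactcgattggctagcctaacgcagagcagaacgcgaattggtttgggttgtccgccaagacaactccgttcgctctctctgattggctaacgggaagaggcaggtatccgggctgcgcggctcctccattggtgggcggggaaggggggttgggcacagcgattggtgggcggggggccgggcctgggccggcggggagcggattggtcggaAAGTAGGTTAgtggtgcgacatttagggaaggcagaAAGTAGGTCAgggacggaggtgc
Per3, chr4:151044616-151044915, minus strand: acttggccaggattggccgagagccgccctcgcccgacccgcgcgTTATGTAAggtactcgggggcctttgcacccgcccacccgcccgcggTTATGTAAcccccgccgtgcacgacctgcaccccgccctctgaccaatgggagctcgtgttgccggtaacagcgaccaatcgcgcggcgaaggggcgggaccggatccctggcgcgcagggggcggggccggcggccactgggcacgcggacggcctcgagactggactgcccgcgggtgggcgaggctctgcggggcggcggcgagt

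The Arntl window holds 2 ROR elements, AAGTAGGTTA at bases -9 to 1 and AAGTAGGTCA at bases 28 to 37 from the start site. An ROR element occurs in 0.682% of the 32851 windows of the same length, and among the 13 clock windows it was found in 2, both of Arntl and overlapping each other. The Nr1d1 window holds an E'-box, read on the opposite strand, at bases -28 to -23, a motif found in 4.68% of all windows, while the Nr1d2 window holds no match to the 4 motifs. Per3 carries 2 D-boxes with the letters TTATGTAA, and D-boxes, bound by the DBP, TEF, HLF and NFIL3 proteins, occur in 3.38% of windows. The E-box was found in a window of Cry1 and a window of Per1, and in 7.15% of all windows. Of the 13 clock windows, 3 held an E'-box, those of Nr1d1, Cry1 and Cry2. A D-box was found in 2, of Per3 and Per1, and the windows of Clock and Npas2 held no match. A match is a stretch of letters and not a measured binding site.

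Among tested probe sets, those of the Rev-erb genes had the most negative log2 changes of the clock genes, and none passed the test. Nr1d2 (probe set 1416958_at), which encodes REV-ERB beta, had signals of 1173, 1033 and 1793 in isolated mice, against 1830, 1624 and 2160 in control mice. Isolated replicates 1 and 2 lay below every control, while isolated replicate 3 lay between control replicates 1 and 2. The means were 1333 ± 405 in isolated mice and 1871 ± 270.3 in control mice (SD, n = 3 each). The log2 change was -0.52 ± 0.18 (SE), with a 95% interval of -0.89 to -0.15 and a limma adjusted p of 0.186.

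The other Nr1d2 probe set, 1416959_at, read 57.8, 63.3 and 93.2 in isolated mice, against 129, 84.0 and 106 in control mice. Isolated replicates 1 and 2 were again the lowest arrays, and isolated replicate 3 lay inside the control range. Its log2 change of -0.57 ± 0.23 (SE) came with an adjusted p of 0.310 by limma. Without isolated replicate 3, the log2 change of probe set 1416958_at was -0.75 and limma gave an adjusted p of 0.0214, against 0.186 with that array kept. Probe set 1416959_at was not called without it (adjusted p 0.130 by limma).

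Nr1d1, which encodes REV-ERB alpha, had the widest range over the 6 arrays of any tested clock probe set, 5.95-fold. Its single probe set, 1426464_at, read 31.1, 13.0 and 50.1 in isolated mice, against 44.0, 39.7 and 77.2 in control mice. The groups overlapped, with isolated replicate 3 above 2 of the 3 controls, and the reading of isolated replicate 2 lay under 18, the signal at which the filter was set. The log2 change was -0.85 ± 0.37 (SE), with a 95% interval of -1.62 to -0.08 and a limma adjusted p of 0.370. It was -1.26 without isolated replicate 3 and -0.36 without isolated replicate 2.

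**Figure D1:**
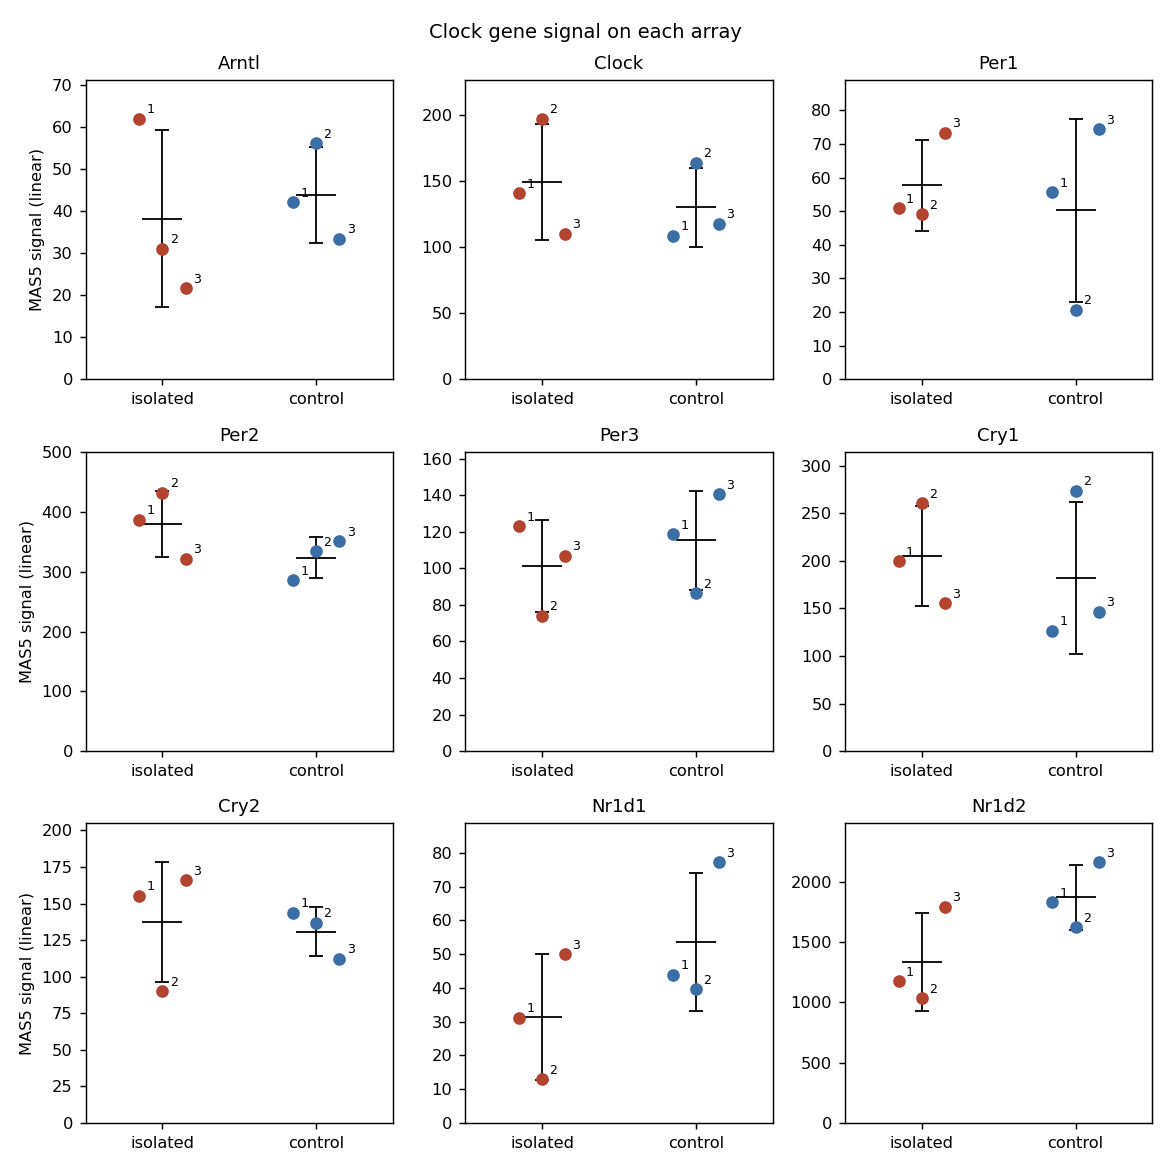
MAS5 signal (linear, vertical axis from 0) of the brightest tested probe set of each of 9 clock genes, isolated mice left and control mice right. Points are arrays with their replicate number, and bars are the mean ± SD of 3 arrays. On these probe sets the groups overlap in 9 of 9 genes, while 15.4% of all tested probe sets do not overlap. Isolated replicates 1 and 2 lie below the controls for Nr1d1 and Nr1d2.

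No activator passed the test in either direction. Arntl (probe set 1425099_a_at) read 62.1, 31.1 and 21.7 in isolated mice, against 42.2, 56.2 and 33.5 in control mice. The highest and the 2 lowest readings were all in isolated mice, so the isolated arrays spanned the whole control range. The log2 change was -0.29 ± 0.33 (SE), with a 95% interval of -0.97 to 0.40 and a limma adjusted p of 0.840, and without isolated replicate 3 it was 0.032. The other Arntl probe set, 1457740_at, had a log2 change of 0.12 ± 0.36 (SE). It read 17.6 to 30.9 in isolated mice and 17.9 to 29.9 in control mice, near the filter signal of 18.

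Clock, whose protein is the partner of ARNTL and has acetyltransferase activity, was measured by 4 tested probe sets. The brightest, 1418659_at, read 141, 197 and 110.1 in isolated mice, against 109, 164 and 118 in control mice, and the groups overlapped. Its log2 change was 0.18 ± 0.22 (SE), adjusted p 0.860 by limma, and among the 4 probe sets 2 had a change above 0 and 2 below. Npas2, the paralog that can replace CLOCK, had signals of 9.87, 1.62 and 1.13 in isolated mice, against 9.57, 0.847 and 0.785 in control mice, on probe set 1421037_at. Its other probe set, 1421036_at, read 2.57, 1.12 and 1.53 in isolated mice, against 0.781, 20.1 and 1.59 in control mice. Readings this low were not tested and carry no order.

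Among the Period genes, which encode inhibitors of the activators, the most positive log2 change was on a probe set of Per2, and 0 passed the test. The brightest probe set of Per2, 1417602_at, read 388, 432 and 322 in isolated mice, against 286, 334 and 351 in control mice. Isolated replicates 1 and 2 were the highest arrays, and replicate 3 fell within the control range. The log2 change was 0.23 ± 0.17 (SE), adjusted p 0.711 by limma. Probe set 1417603_at of the same gene read 67.1, 87.8 and 82.3 in isolated mice, against 55.6, 57.0 and 49.6 in control mice.

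This was the 1 clock probe set of 19 whose groups did not overlap, against 15.4% of all tested probe sets (9.62% with isolated mice higher). Its log2 change was 0.53 ± 0.21 (SE), adjusted p 0.320 by limma. The third probe set, 1457350_at, had a log2 change of 0.03, so the probe sets of Per2 gave changes of different size.

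Per1, which also responds quickly to glucocorticoids and other stimuli, read 50.8, 49.2 and 73.4 in isolated mice, against 55.7, 20.7 and 74.4 in control mice. Control replicate 2 stood well below the other 5 arrays. The log2 change was 0.34 ± 0.34 (SE), adjusted p 0.805 by limma, and without control replicate 2 it was -0.17. Per3, the third Period paralog, had 4 tested probe sets, of which 3 had a change above 0 and 1 below. Its brightest, 1421087_at, read 123, 74.1 and 107 in isolated mice, against 119, 86.5 and 141 in control mice, and the groups overlapped. The log2 change was -0.19 ± 0.23 (SE), adjusted p 0.856 by limma. The remaining Per3 probe sets, 1460662_at and 1421086_at, lay below the filter at signals of 0.91 to 21.5 in isolated mice and 6.67 to 23.0 in control mice.

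The Cryptochromes, which bind and block the activators, did not pass the test, with groups that overlapped in both. Cry1 read 199.5, 261 and 156 in isolated mice, against 127, 274 and 147 in control mice. Each group held at least 1 high array, replicate 2 in both, and the log2 change was 0.22 ± 0.25 (SE), adjusted p 0.834 by limma. It was 0.0031 without control replicate 1 and 0.55 without control replicate 2. Cry2 read 155, 90.1 and 166 in isolated mice, against 144, 137 and 112 in control mice. The isolated arrays held the highest and the lowest reading, and the log2 change was 0.03 ± 0.22 (SE), adjusted p 0.985 by limma.

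The intervals give the precision reached with these arrays. Of the 19 tested probe sets, 15 had a 95% interval that included 0, 3 had one wholly below 0 and 1 had one wholly above. For the 16 probe sets of activators, Period genes and Cryptochromes, the lowest bound was a ratio of 0.510 and the highest a ratio of 2.06, isolated over control. These outer bounds belong to Arntl and Per1, and other probe sets had narrower intervals, such as log2 changes of -0.13 to 0.59 for Per2 (1417602_at). A p that misses the threshold does not show equal levels.

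**Figure D2:**
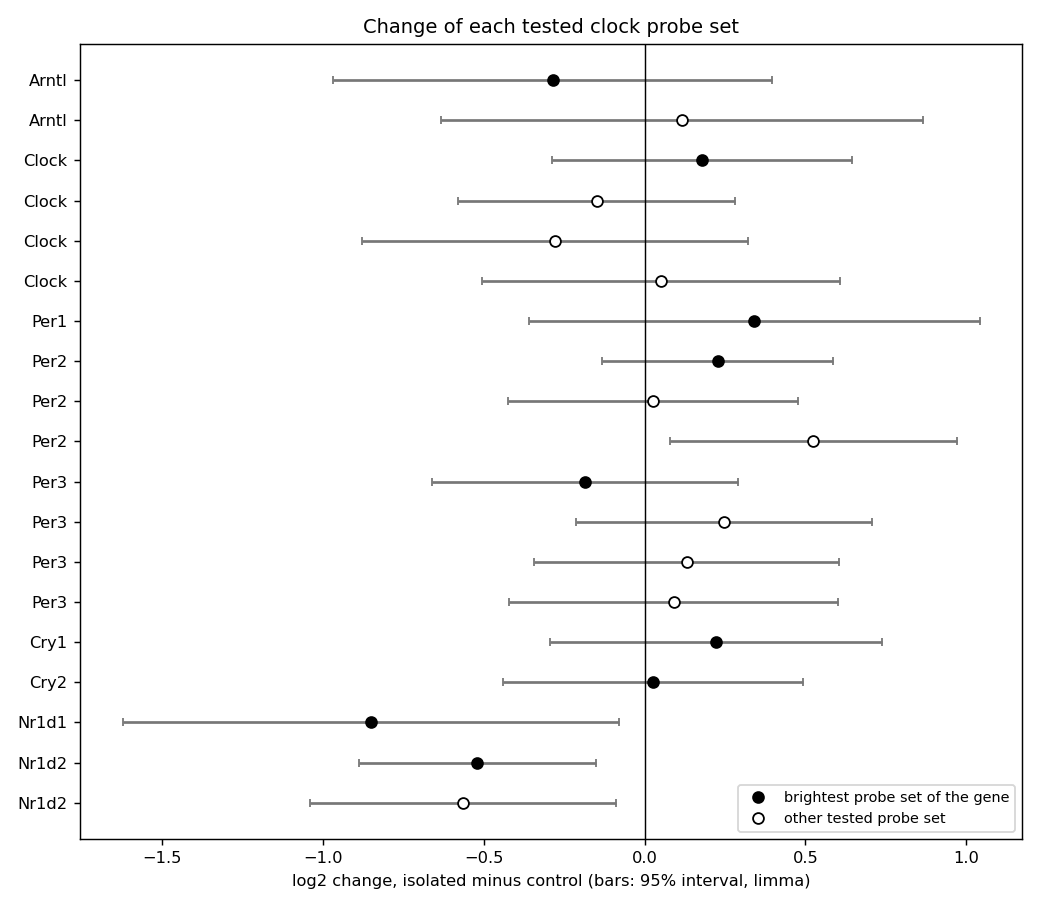
Log2 change (isolated minus control, horizontal axis) of the 19 tested clock probe sets, grouped by gene, with 95% intervals from limma. Filled points are the brightest probe set of a gene. The 3 Rev-erb intervals lie below 0 and 1 Per2 interval above it, while the other 15 include 0.

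Apparent phase was described with 2 coordinates per array. The first is the mean log2 value of Nr1d1, Nr1d2 and Per3 minus that of Arntl and Clock, which peak roughly opposite to each other. It was 0.83, 0.38 and 2.07 in isolated mice, against 1.63, 0.89 and 2.16 in control mice. Isolated replicate 3 lay beside control replicate 3 at the high end, control replicate 2 lay beside isolated replicate 1, and isolated replicate 2 was lowest. These positions rest in part on dim readings. Nr1d1 read 13.0 on isolated replicate 2, under the filter signal of 18, and Arntl read 21.7 on isolated replicate 3. The means were 1.09 ± 0.88 in isolated mice and 1.56 ± 0.64 in control mice (SD, n = 3 each). The difference of -0.46 was smaller than the spread within groups, an SD of 0.77, and than the span of 1.78 over all 6 arrays. It was -0.95 without isolated replicate 3 and -0.11 without isolated replicate 2. The log2 changes behind it were -0.85 for Nr1d1, -0.52 for Nr1d2 and -0.19 for Per3. Arntl and Clock were at -0.29 and 0.18, and both 95% intervals included 0, so whether the activators shifted together is not settled. With the mean of all tested probe sets per gene the difference was -0.37, and Per3 was at 0.07. Arntl was then at -0.085 and Clock at -0.049, both below 0.

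The other coordinate is the mean log2 value of Per1 and Per2, which peak between these sets. It was 7.16, 7.22 and 7.29 in isolated mice, against 7.01, 6.45 and 7.36 in control mice. The isolated arrays lay close together inside the range of the controls, and control replicate 2 was the lowest array. On that array Per1 lay at -1.20 from the mean of the 6 arrays, with a signal of 20.7, near the filter signal of 18. Per2 lay at -0.06 there, so the low position came from Per1. The means were 7.22 ± 0.06 in isolated mice and 6.94 ± 0.46 in control mice (SD, n = 3 each), and without control replicate 2 the difference of 0.28 became 0.04. On both coordinates the ranges of the groups overlapped, and whether apparent phase differed was not tested. Both sums are descriptions without a test, and since levels of different probe sets are not comparable, their zero has no meaning.

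**Figure D3:**
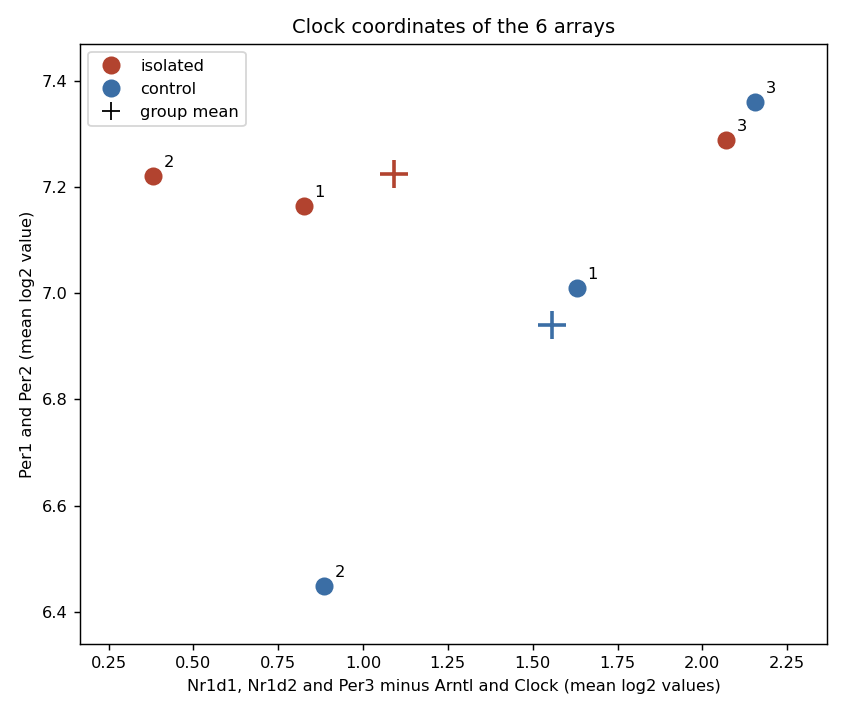
The 6 arrays by mean log2 value of Nr1d1, Nr1d2 and Per3 minus that of Arntl and Clock (horizontal) and mean log2 value of Per1 and Per2 (vertical). Numbers are replicates and crosses are group means. Isolated replicate 3 lies next to control replicate 3, and control replicate 2 is apart at the bottom through its low Per1 reading.

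Dbp, a PAR bZIP factor and direct target of the activators, was singled out after its values were seen. Dbp read 1138, 1076 and 2928 in isolated mice, against 2073, 684 and 2539 in control mice. High and low arrays occurred in both groups, 4.28-fold apart at the extremes, and the log2 change between the groups was -0.0018 ± 0.36 (SE), adjusted p 0.999 by limma. The other Dbp probe set, with signals of 342 to 1020.0 in isolated mice and 250.4 to 786 in control mice, ranked control replicate 2 lowest and isolated replicate 3 highest as well. With 1 array left out, the log2 change of the brighter probe set ran from -0.58 to 0.36, without a call. The 3 highest arrays for Dbp, isolated replicate 3 and control replicates 3 and 1, were also the 3 highest for Nr1d1, Nr1d2 and Per1. They were not the 3 highest for Per3, Tef, Hlf, Bhlhe40 or Ciart.

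**Figure D4:**
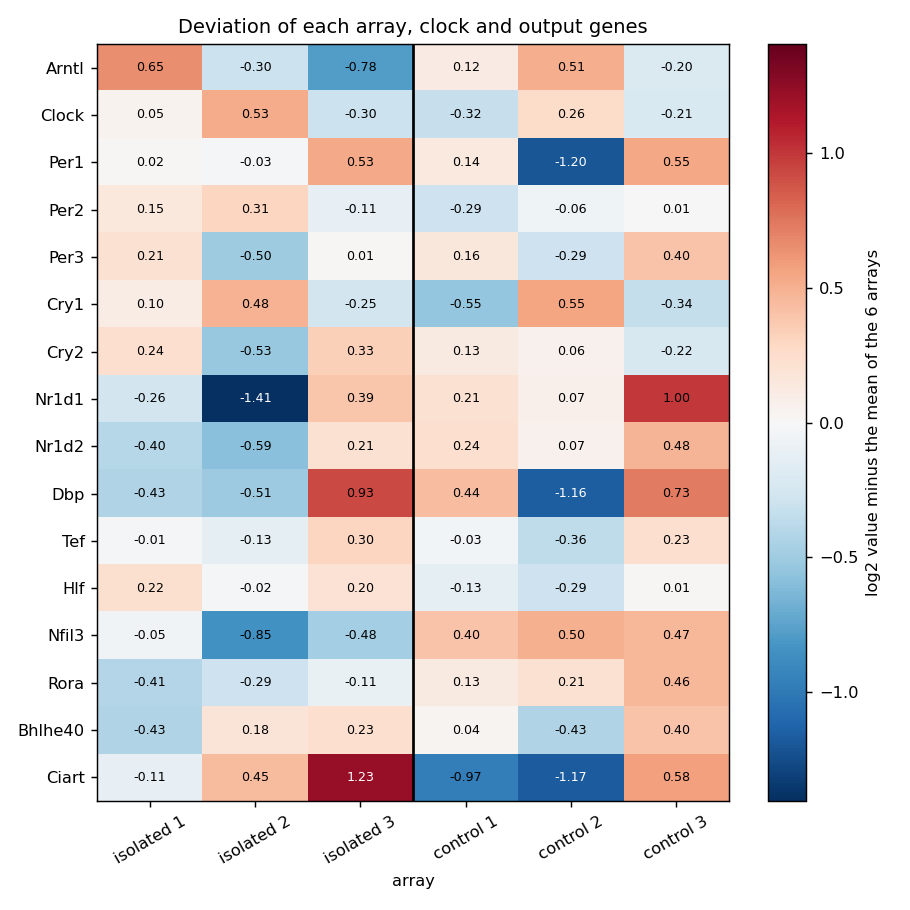
Log2 value of each array minus the mean of the 6 arrays, for the brightest tested probe set of 9 clock genes and 7 output factors, isolated arrays left of the line and control arrays right. Dbp is high on isolated replicate 3 and control replicates 1 and 3, and low on the other 3 arrays. Nfil3 and Rora are below 0 on all 3 isolated arrays and above 0 on all 3 control arrays.

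Of 7 tested transcription factors that surround the core loop, 1 fell, 0 rose and 6 did not pass, and the median log2 change was -0.0018. Lower calls made up 0.857% of all tested probe sets, and the list was chosen with earlier results of these data known. Nfil3, a repressor that competes with DBP at D-boxes, read 182, 103 and 134 in isolated mice, against 249, 267 and 261 in control mice. Every isolated array lay below every control, and the log2 change was -0.92 ± 0.20 (SE), adjusted p 0.0185 by limma. The call ended without isolated replicate 2 (adjusted p 0.0825), control replicate 2 (0.0560) or control replicate 3 (0.0799), and in a fit without the intensity trend (0.198).

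Rora encodes an activator that binds the same ROR elements as the REV-ERB proteins. Its brightest probe set read 292, 318 and 360.2 in isolated mice, against 426, 450.5 and 537 in control mice. The groups did not overlap, and the log2 change was -0.54 ± 0.17 (SE), adjusted p 0.138 by limma. All 7 tested probe sets of Rora had a change below 0, from -0.85 to -0.15, and in 5 of them the groups did not overlap, against 5.79% of all tested probe sets with isolated mice lower. Probe sets of 1 gene measure the same RNA and are not independent. Of the 7, probe set 1458129_at, chosen after its values were seen, passed with an adjusted p of 0.0214 by limma. Its signals were 87.8, 89.0 and 72.4 in isolated mice, against 160.1, 145 and 149 in control mice. That call ended without isolated replicate 3 (adjusted p 0.0662) or control replicate 1, 2 or 3 (0.0824, 0.0570 and 0.0694), and without the intensity trend (0.136). Probe set 1455165_at (adjusted p 0.0900 by limma) was called in a robust fit (0.0480) and without isolated replicate 2 (0.0259).

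Ciart, a repressor of the activators, read 46.5, 69.6 and 121 in isolated mice, against 24.8, 21.3 and 76.4 in control mice. The groups overlapped through control replicate 3, and the log2 change was 1.04 ± 0.38 (SE), adjusted p 0.228 by limma. With 1 array left out it ran from 0.69 to 1.59, and Ciart was called without isolated replicate 1 (adjusted p 0.0445) or control replicate 3 (0.0347). Hlf, another PAR bZIP factor, had a log2 change of 0.27 ± 0.18 (SE), adjusted p 0.649 by limma. On its other probe set, 1434735_at, the groups did not overlap, with 180, 200.3 and 201 in isolated mice, against 147, 133 and 156 in control mice. The log2 change there was 0.41 ± 0.18 (SE), adjusted p 0.372 by limma.

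**Figure D5:**
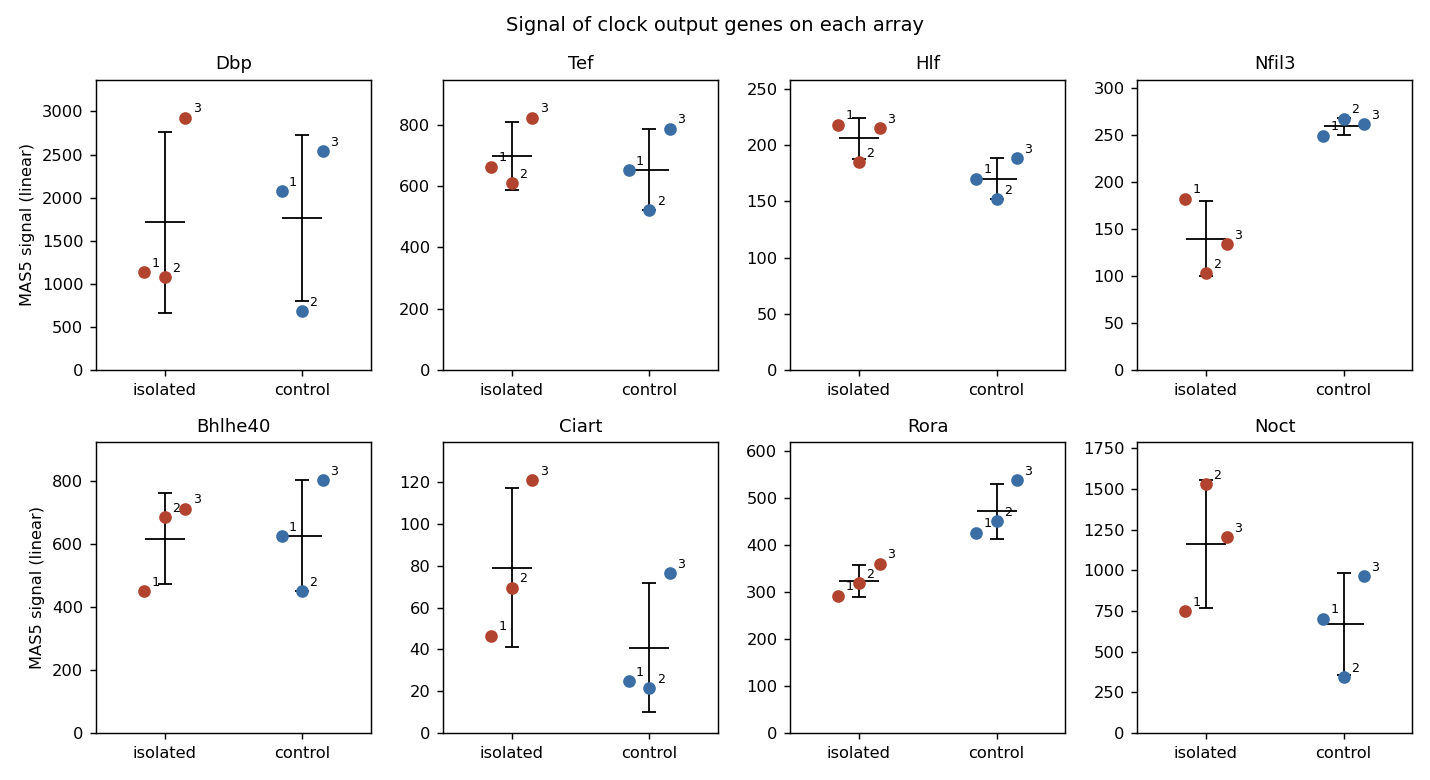
MAS5 signal (linear, vertical axis from 0) of 7 output factors and of Noct, a rhythmic liver gene, isolated mice left and control mice right. Points are arrays with their replicate number, and bars are the mean ± SD of 3 arrays. The groups are apart for Nfil3 and Rora and overlap for the other 6.

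Another list held 13 tested genes, mostly of kinases, phosphatases, ubiquitin ligases and a deacetylase that act on clock proteins. It also held Usp2 and Nampt, which belong to none of these classes and are counted again among the rhythmic liver genes below. Of the 13, 0 were called by limma and 2 had an unadjusted p under 0.05. Their median log2 change was 0.0021. Of all tested probe sets, 1.63% were called and 11.4% had an unadjusted p under 0.05. Sirt1, a deacetylase of PER2 and ARNTL, read 91.1, 103 and 115 in isolated mice, against 156, 155 and 149 in control mice. Every isolated array was below every control, with a log2 change of -0.57 ± 0.19 (SE), adjusted p 0.158 by limma. Csnk1d, the kinase that marks PER proteins for degradation, also read lower on every isolated array, with a log2 change of -0.39 ± 0.17 (SE), adjusted p 0.359 by limma. Prkaa1 was the last of 3 list genes whose groups did not overlap, with a log2 change of -0.32, adjusted p 0.695 by limma. In 5.79% of all tested probe sets the groups did not overlap with isolated mice lower. Usp2, a rhythmic deubiquitinase, had a log2 change of 0.35, adjusted p 0.532 by limma.

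Of 14 tested rhythmic liver genes under clock control, Cyp7a1 rose with a log2 change of 2.46, 0 fell and 13 did not pass. Higher calls made up 0.773% of all tested probe sets, and the list was chosen with earlier results of these data known. The median of the 14 was -0.08. Cyp7a1, which starts bile acid synthesis from cholesterol, had an adjusted p of 3.23e-05 by limma, but 0.0797 without the intensity trend and 0.200 in a robust fit. Noct, a rhythmic mRNA and dinucleotide phosphatase, read 748, 1530.0 and 1205 in isolated mice, against 703, 343 and 966 in control mice. The groups overlapped through isolated replicate 1, and the log2 change was 0.85 ± 0.28 (SE), adjusted p 0.157 by limma. With 1 array left out it ran from 0.43 to 1.18, and Noct was called without isolated replicate 1 (adjusted p 0.0105). Lonrf3 and Insig2 had log2 changes of -0.72 and -0.35 with limma adjusted p of 0.228 and 0.509. Lonrf3 ran from -0.99 to -0.32 with 1 array left out and was called without isolated replicate 1 (adjusted p 0.0385), and Insig2 ran from -0.54 to -0.18 with no call.

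Of 13 tested liver genes whose rhythm follows temperature, feeding or hormones, 2 rose, 2 fell and 9 did not pass. Of all tested probe sets, 0.773% were called higher and 0.857% lower. The list was drawn up with earlier results of these data known, so its count does not speak for such genes as a class. The feeding-linked Srebf1 and Fasn rose, with log2 changes of 2.40 and 1.19, and the insulin-repressed Igfbp1 and the glucocorticoid-induced Fkbp5 fell, with log2 changes of -3.89 and -0.82. The median of the 13 was 0.07. The adjusted p by limma was 2.85e-06 for Srebf1, 0.000144 for Fasn, 4.93e-06 for Igfbp1 and 0.0112 for Fkbp5. Without the intensity trend Fasn (0.0621) and Fkbp5 (0.167) no longer passed, in a robust fit Igfbp1 did not (0.148), and without control replicate 3 Fkbp5 did not (0.0641). Hspa1a, Pck1 and Tsc22d3 had log2 changes of -0.96, -0.41 and 0.43, with adjusted p by limma of 0.0902, 0.204 and 0.371. Calls were also gained with 1 array left out, for Hspa1a without control replicate 1 (adjusted p 0.0362, changes from -1.17 to -0.59) and for Pck1 without isolated replicate 3 (adjusted p 0.0413, changes from -0.59 to -0.26).

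Over the 6 arrays, the genes whose log2 values followed a clock gene most closely were picked from 10977 represented genes outside the clock list. The highest Pearson correlations with Nr1d1 were those of Cdk2, Insr and Sumf1, at 0.997, 0.995 and 0.992. Those with Arntl were of Akap5, Dcdc2a and Epm2a, at 0.976, 0.956 and 0.946, and those with Per2 were of Ccdc39, Gsk3b and Ccdc51, at 0.982, 0.969 and 0.968. Limma adjusted p between the groups was 0.586 to 0.962 for these 9 genes. With 6 arrays and so many genes to choose from, these values only describe the arrays.

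Array-wide measures were as follows. Correlations between arrays were 0.969 to 0.974 within groups and 0.955 to 0.968 between groups. Median signals were 18.4 to 21.9 in isolated mice and 18.4 to 22.1 in control mice. The 2% trimmed mean signals of replicates 1, 2 and 3 were 100.01, 92.5 and 111 in isolated mice. In control mice they were 93.0, 94.6 and 108. The main fit applied no further scaling between arrays, so the mean of Per1 and Per2 carries such differences. Its group difference was 0.24 with median centring and 0.26 with quantile normalization. The summed signal of 6 hepatocyte markers was 48373 to 53070 in isolated mice and 48165 to 52971 in control mice. Of 24 markers tested from 9 cell type lists, 0 were called by limma and 3 had an unadjusted p under 0.05. Of all tested probe sets, 1.63% were called and 11.4% had an unadjusted p under 0.05. The 3 were the hepatocyte marker Tat, the stellate cell marker Lrat and the fat marker Fabp4. Tat and Lrat had log2 changes of 0.50 and 0.43. The summed signal of 5 fat tissue markers was 223, 395 and 506 in isolated replicates 1, 2 and 3, against 140 to 234 in control mice, and 4 of the 5 lay below the filter. Fabp4, a fatty acid binding protein of fat cells and macrophages and the largest share of that sum, read 203, 300.3 and 404 in isolated mice, against 117, 202 and 157 in control mice. Its groups did not overlap, and the log2 change was 0.90 ± 0.23 (SE), adjusted p 0.0578 by limma. Adipoq read 3.78, 59.5 and 54.8 in isolated mice, against 4.38, 8.48 and 15.6 in control mice. Retn read 2.65, 20.0 and 42.2 in isolated mice, against 2.39, 2.78 and 3.88 in control mice. Both were high on isolated replicates 2 and 3, while Lep read 0.775 to 3.08 in isolated mice and 0.821 to 3.30 in control mice, and Cidea 1.76 to 14.6 in isolated mice and 3.58 to 18.3 in control mice. On isolated replicate 1 alone against the controls, a comparison added after the data were seen, the log2 change of Nr1d2 was -0.66 and that of Nr1d1 was -0.69. There Arntl was at 0.51 and Per3 at 0.12, against -0.29 and -0.19 with all arrays. That comparison rests on 1 isolated array, on which Fabp4, at 203, was also above the highest control, at 202. It therefore does not separate samples with fat tissue from samples without it. Whether fat tissue in the samples bears on the clock gene values was not tested. The ratio of 3' to 5' signal was 1.99 to 2.35 in isolated mice and 2.14 to 2.32 in control mice for Actb, and 0.689 to 0.695 in isolated mice and 0.692 to 0.719 in control mice for Gapdh.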

How the data were processed

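RNA of 6 mouse liver samples was hybridised to Affymetrix arrays, 1 per sample. The intensity values the authors deposited are linear signals of MAS5, a name taken from the submitters' processing notes, which state no scaling target. Detection calls were not used here. The number of arrays limits the precision. Before log2, 2 was added to each signal (about their 10th percentile), so changes of dim probe sets are understated. The upper 50% by mean log2 value, 22519 probe sets, were fitted with limma 3.58.1 in R 4.3.3 (2 groups, eBayes with an intensity trend, two-sided tests, Benjamini-Hochberg over all tested probe sets). The procedure was tested on simulated data. The fitted trend counted for 16.1 degrees of freedom, and the arrays themselves for 4. An exact permutation test with 3 arrays per group cannot give a p under 0.1.

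Probe sets were named from the platform annotation (34958 with 1 symbol, 932 with several); 0 symbols changed through RefSeq gene identifiers. A gene is represented by its brightest tested probe set. Of the 99 list entries, 10 matched no annotated probe set. Genes named were all clock genes, called list genes, up to 3 further genes per list by p, and the 3 most correlated genes for Arntl, Nr1d1 and Per2. Members and lists were chosen with earlier results of these data known. Whether the arrays stem from separate mice is not in the labels, so p-values measure only the spread between these samples, which may be partly technical. Alternatives covered the pseudocount, filter, normalization, variance model, replicate number as a block, threshold, probe set per gene, test and each array left out. Figures were drawn with matplotlib 3.10.9.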

Additional observations from a re-analysis of the deposited data

How the results depend on the processing

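Under the alternatives, log2 changes of the 9 tested clock genes changed sign in 13 cases, none of them called in either setting, and passed the threshold in 2, both of Nr1d2. Alternatives of the filter, variance model, block, threshold and permutation test leave the log2 change itself as it is, and the permutation test cannot reach the threshold, so these show nothing about direction. The log2 change of Nr1d2 ran from -0.75 to -0.36 and that of Nr1d1 from -1.26 to -0.36 over all alternatives, below 0 in each. With 1 array left out, the number of clock probe sets called lower was 0 to 1 and higher 0, while over the whole table higher calls ran from 97 (without isolated replicate 3) to 187 and lower calls from 82 (without control replicate 3) to 243. In the same fits Arntl ran from -0.68 to 0.032, Clock from -0.039 to 0.38, Per1 from -0.17 to 0.70, Per3 from -0.37 to 0.021, Per2 from 0.13 to 0.34, Cry1 from 0.0031 to 0.55 and Cry2 from -0.13 to 0.30 on the log2 scale. Cry2 was at -0.020 with median centring and -0.032 with quantile normalization, and with the mean of all tested probe sets Clock was at -0.049 and Per3 at 0.071. For Nr1d2, the limma adjusted p was 0.0633 with median centring and 0.0749 with quantile normalization, against 0.186 in the main fit. Whole-table calls numbered 81 higher and 101 lower without a filter, 15 and 16 without the intensity trend, and 303 higher at a threshold of 0.1. Without isolated replicates 2 and 3, added after the data were seen and assuming that the 1 array left varies like the controls, there were 88 higher calls, Arntl was at 0.51 and Per3 at 0.12, and 0 clock probe sets passed. Clock genes below the upper 25% gave no value under that filter. The causes were not tested.

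The labels do not say whether equal replicate numbers pair the samples. Deviations from the group means correlated at 0.0049 to 0.044 between same-numbered arrays. Of 3 isolated arrays, 2 correlated best with their own number, which does not settle whether the numbers pair samples. With the replicate number as a block, 265 probe sets were called higher and 248 lower over the whole table, against 174 and 193 without it. In that fit 1 clock probe set was called lower, that of Nr1d2 (log2 change -0.52, limma adjusted p 0.0295). The block also called 2 further Rora probe sets, 1424034_at (0.0360) and 1455165_at (0.0246).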
